A study of Mus musculus with 4 samples.

Results

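Collagen transcripts were followed in bulk hepatocellular carcinoma tissue of 4 mice. The collagen genes are the protein-coding genes of GENCODE M21 whose symbol is Col, a type number, the letter a and a chain number, and 44 of the 55487 genes in the deposited count table met this rule. Per the series title, the tumours came from Alb-cre H11-myc mice, in which a Cre recombinase under the albumin promoter acts in liver epithelium and a Myc transgene sits at the H11 locus. Tfrc, the transferrin receptor gene, had been deleted conditionally in the liver of 2 mice, and 2 mice were labelled wild type. The labels do not say which of the alleles the wild type mice carried, nor the age or sex of any mouse. The study asked what Tfrc does to the tumour microenvironment, to which the collagen matrix belongs. Each library is 1 mouse, and the 4 libraries held between 15918349 and 17052943 counts.

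Collagens are secreted or membrane-bound proteins whose chains wind around each other in a helix built from repeats of glycine and 2 further residues. Fibrillar collagens form the cables of scar tissue, type IV collagen forms the sheet of basement membranes, type VI forms beaded filaments, and fibril-associated collagens decorate the cables. In liver, hepatic stellate cells and portal fibroblasts are the main makers of fibrillar collagen, endothelial cells contribute type IV, and hepatocytes make type XVIII. Fewer cells of a type and less RNA per cell cannot be told apart in bulk tissue.

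Tfrc, the gene targeted in the knockout, did not separate the groups. It had 8441 and 3603 counts in the wild type mice against 5407 and 3244 in the labelled knockout mice. The groups overlapped, with knockout replicate 1 above wild type replicate 2 (log2 fold change -0.37, SE 0.45, edgeR quasi-likelihood adjusted p = 0.833). A whole-gene count covers cells without Cre and exons outside any deleted part, and the values did not check the labels. The directions below are those of the libraries labelled knockout. Wild type replicate 2 stood apart on the first principal component, which held 48.5% of the variance, at 73.9 against -35.0 to -8.24 for the other 3. Mitochondrial genes took between 4.13% and 16.63% of the counts of a library. The hepatocyte product Alb was abundant in all 4 libraries, between 0.6% and 2.66% of counts.

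Collagen transcripts were scarcer in both libraries labelled knockout than in either wild type library. Levels are CPM, counts scaled to a common library size with TMM factors, and each pair of values is in the order of replicates 1 and 2. Over all 44 genes the sum was 2945 and 2751 CPM in the wild type mice against 1774 and 2281 CPM in the knockout mice. The means were 2848 ± 137 and 2028 ± 358 CPM (SD, n = 2 mice each), a ratio of 0.712. The exact two-sided permutation p was 0.333, the smallest that 2 against 2 libraries can give. Col1a1, Col1a2, Col3a1, Col4a1, Col4a2 and Col18a1 together made up 81.2%, 83.6%, 82.8% and 77.4% of the collagen counts of wild type 1, wild type 2, knockout 1 and knockout 2. Of the other genes, 14 had a mean of at least 5 CPM, 21 were detected below that level, and Col4a6, Col19a1 and Col26a1 had no count in any library. A count of 0 in 1 library allows a level of up to 0.195 CPM, the value of 3 counts in wild type replicate 2.

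**Figure D1:**
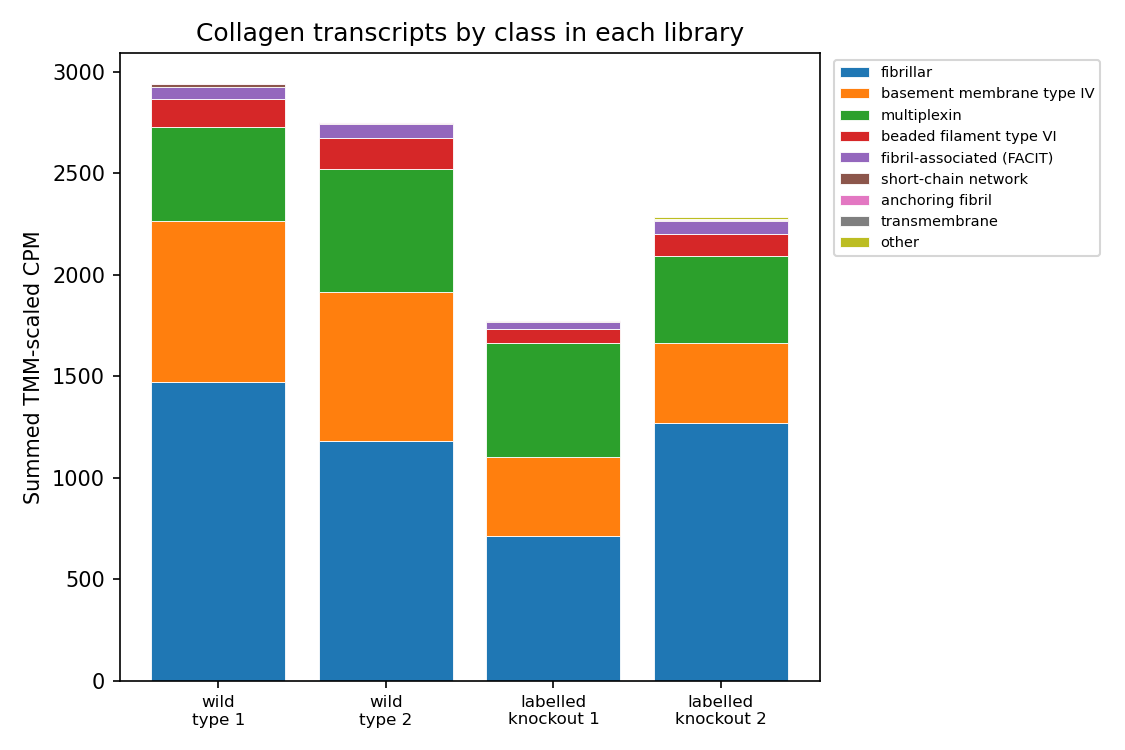
Summed TMM-scaled CPM of the 44 collagen genes in each library (one bar per mouse), stacked by structural class. Both bars labelled knockout, at 1774 and 2281 CPM, are shorter than the wild type bars at 2945 and 2751 CPM, and the type IV block is the one that differs alike in both.

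No collagen gene passed the threshold. Of the 44 genes, 27 passed the filter on low counts and were tested, and 0 of them had an adjusted p below 0.05 by edgeR's quasi-likelihood test, DESeq2 or limma-voom. Of all 16310 tested genes, 0% passed with edgeR, 0.907% (148) with DESeq2 and 1 gene with limma-voom. The smallest adjusted p among collagen genes was 0.545 with edgeR and 0.0587 with DESeq2, both for Col4a2. At an unadjusted p under 0.05, edgeR had 6 collagen genes lower and 1 higher, where 4.35% and 3.95% of all tested genes were lower and higher. DESeq2 had 7 such collagen genes in all, where 9.18% of all tested genes passed, and limma-voom had 6, where 8.5% did. Of the 27, 18 had a negative log2 fold change and 9 a positive one, where 49.6% and 50.4% of all tested genes did. The median was -0.41 against 0.005 for all tested genes. In 10 of the 27 both knockout libraries lay below both wild type libraries (20.1% of all tested genes), and in 3 both lay above (21.9%). The number at an unadjusted p under 0.05 moved with single libraries, for collagen genes and for all genes. It was 13 of 31 collagen genes (24.0% of all genes) without wild type replicate 1 and 12 of 31 (11.0%) without wild type replicate 2. It was 6 of 31 (4.49%) without knockout replicate 1 and 0 of 27 (3.07%) without knockout replicate 2. The share of negative values was also lower in most of these fits, at 16 of 31 without wild type replicate 1, wild type replicate 2 or knockout replicate 1, where 48.2%, 47.6% and 51.4% of all genes were negative. With no filter on low counts it was 21 of 41, where 46.8% of all genes were negative. The number of collagen genes tested differed between these fits, so the shares do not cover the same genes. Of the 20 genes with a mean of at least 5 CPM, 13 were negative in every fit.

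Abundant and scarce collagen genes are given apart, and the difference between them was not tested. Among the 20 genes with a mean of at least 5 CPM, 17 had a negative log2 fold change and 3 a positive one (median -0.59), where 52% and 48% of all tested genes at that level did. In 10 of the 20 the knockout libraries were lower without overlap (21.7% of all at that level), and in 0 they were higher (21.2%). Of the 7 tested genes below that level, 1 was negative, Col11a1 at -0.16, and 6 were positive, where 43.7% and 56.3% of all tested genes below that level were. The 3 tested genes whose knockout values both exceeded the wild type values, Col7a1, Col20a1 and Col9a3, all belonged to these 7 (23.7% of all tested genes below that level). Col9a3 passed the filter through the knockout libraries, where it is higher, and the tested genes do not stand for all collagen genes.

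**Figure D2:**
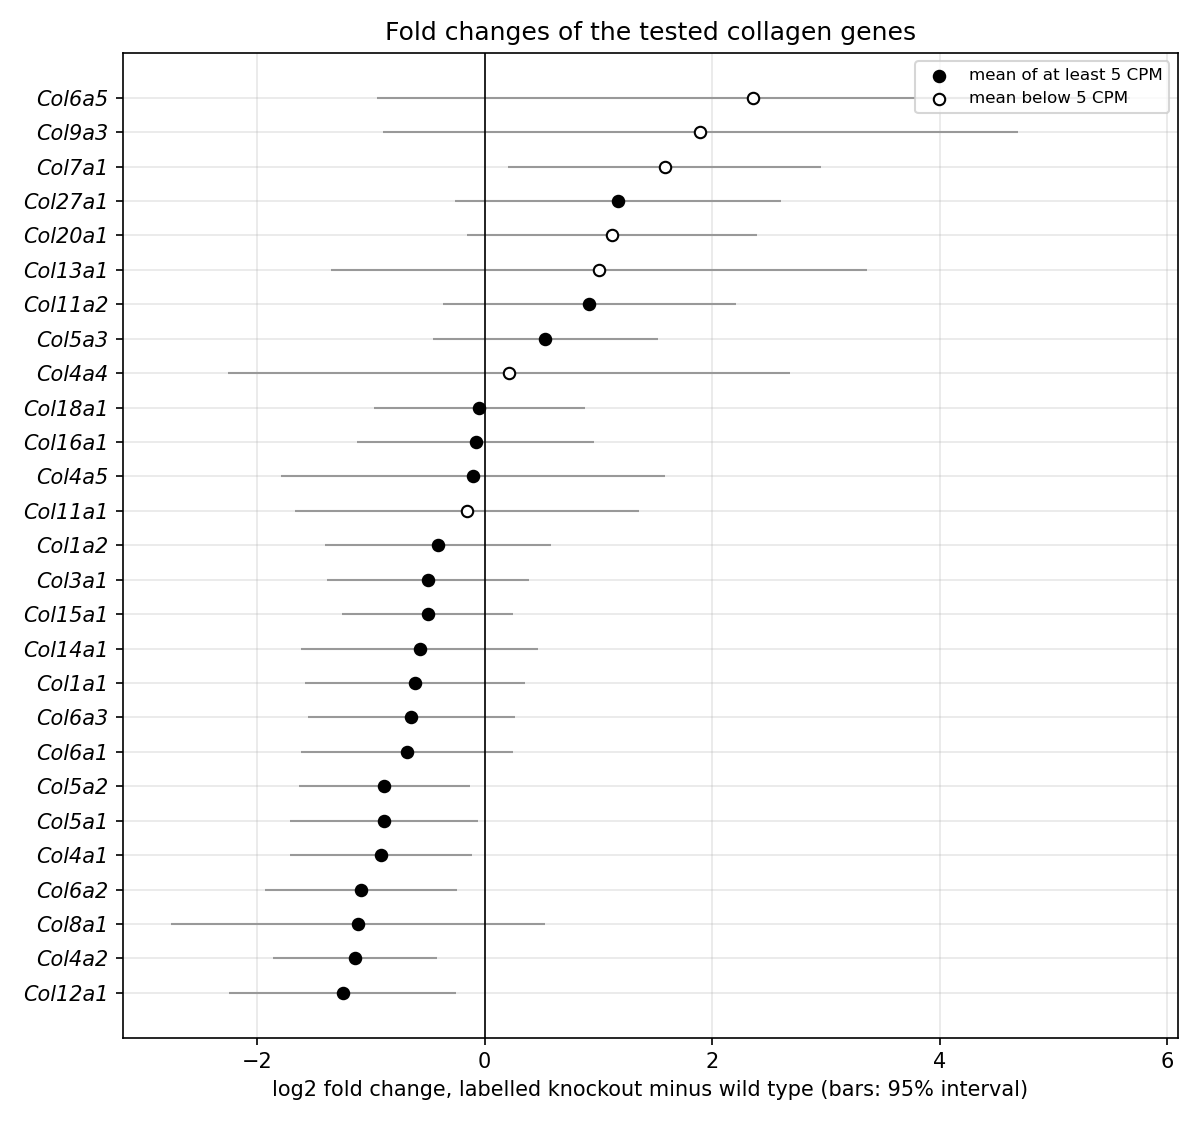
Log2 fold change (labelled knockout minus wild type) of the 27 tested collagen genes with the 95% interval from edgeR's quasi-likelihood fit, filled where the mean was at least 5 CPM. Of the 20 filled points, 17 lie left of 0, and 6 of the open points lie right of 0.

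The type IV genes Col4a1 and Col4a2, the common chains of basement membrane collagen, were lower in both knockout libraries by similar amounts, and Col4a2 had the smallest p of all collagen genes. Col4a2 had 244 and 272 CPM in the wild type mice against 119 and 115 CPM in the knockout mice. Both knockout values were below either wild type value, and they lay closer to each other than the wild type values did. Its fitted log2 difference was -1.14 (SE 0.30, 95% interval -1.86 to -0.42, unadjusted p = 0.0073, edgeR adjusted p = 0.545). Col4a1 had 529 and 456 CPM in the wild type mice against 262 and 262 CPM in the knockout mice, again without overlap. Its log2 fold change was -0.91 (SE 0.34, unadjusted p = 0.031, edgeR adjusted p = 0.585). Leaving out any 1 library kept Col4a1 between -1.02 and -0.84 and Col4a2 between -1.25 and -1.06. Together they made up 26.2% (Wilson 95% interval 25.9 to 26.6) and 26.4% (26.0 to 26.9) of the collagen counts in wild type replicates 1 and 2. In knockout replicates 1 and 2 their share was 21.5% (20.99 to 21.94) and 16.5% (16.1 to 16.9). These shares do not depend on how libraries are scaled, and the intervals cover counting error only. The other type IV genes were scarce. Col4a5, an X-linked chain, had 18.2 and 3.96 CPM in the wild type mice against 7.03 and 13.8 CPM in the knockout mice, so the wild type libraries enclosed both others. Col4a3 and Col4a4 had between 3 and 17 counts per library.

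Col4a1 and Col4a2 lie head to head on chromosome 8 (GRCm38, 11198423 to 11312826 on the minus strand and 11312805 to 11449287 on the plus strand). Their first exons share 22 bases, which are shown because both genes start at their ends and had similar values of the difference. In RefSeq's GRCm38.p6 table Col4a1 reads leftwards from the last of these bases and Col4a2 rightwards from the first.
Col4a1 and Col4a2, chr8:11312805-11312826, plus strand: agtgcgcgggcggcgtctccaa
The shared bases are 0.3% of the exonic length of each gene, so reads that could belong to both are few.

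The genes of the major fibrils, types I and III, had lower values mainly in knockout replicate 1. Col1a1, the main chain of type I collagen (GRCm38 chromosome 11, 94936224 to 94953042), had 506 and 407 CPM in the wild type mice against 215 and 383 CPM in the knockout mice. Its partner Col1a2 had 374 and 271 CPM in the wild type mice against 167 and 317 CPM in the knockout mice. Knockout replicate 2 thus lay just under the lower wild type library for Col1a1 and above it for Col1a2. Col3a1, the type III chain that co-assembles with type I in reticular fibres, had 365 and 347 CPM in the wild type mice against 190 and 314 CPM in the knockout mice, without overlap. The log2 fold changes were -0.61 for Col1a1 (SE 0.41), -0.41 for Col1a2 (SE 0.42) and -0.50 for Col3a1 (SE 0.37), with edgeR adjusted p between 0.689 and 0.791. Without knockout replicate 1 they were -0.29, -0.05 and -0.21, and without knockout replicate 2 they were -1.09, -0.95 and -0.90. These 3 genes made up 42.3% and 37.3% of collagen counts in the wild type mice against 32.2% and 44.5% in the knockout mice, with no separation of the groups.

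Type V collagen nucleates and thins type I fibrils, and its chains differed among themselves. Col5a2 had 56.9 and 45.9 CPM in the wild type mice against 24.0 and 31.8 CPM in the knockout mice, a log2 fold change of -0.88 (SE 0.32, unadjusted p = 0.028). Col5a1 had 71.7 and 42.8 CPM in the wild type mice against 32.0 and 30.1 CPM in the knockout mice, also -0.88 (SE 0.35, unadjusted p = 0.039) and -0.50 without wild type replicate 1. Neither gene had overlapping groups, and edgeR's adjusted p was 0.572 for Col5a2 and 0.591 for Col5a1. The third chain, Col5a3, went the other way in the fit, with 70.8 and 42.2 CPM in the wild type mice against 56.9 and 107 CPM in the knockout mice. Its groups overlapped, and its log2 fold change of 0.53 (SE 0.42) became 0.01 without knockout replicate 2. The minor fibrillar gene Col27a1 had 19.1 and 20.7 CPM in the wild type mice. Knockout replicate 1 had 17.95 CPM, and knockout replicate 2 alone was high, at 71.7 CPM. Its log2 fold change of 1.17 (SE 0.60) turned to -0.15 without that library. Col11a2, a type XI chain, had 6.15 and 3.18 CPM in the wild type mice against 5.92 and 11.8 CPM in the knockout mice (log2 fold change 0.92, SE 0.54). That value was 0.34 without knockout replicate 2 and 1.44 without wild type replicate 1. Col11a1 stayed between 1.17 and 2.51 CPM, Col24a1 had at most 6 counts in a library, and the cartilage gene Col2a1 had 0, 0, 1 and 1 counts.

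**Figure D3:**
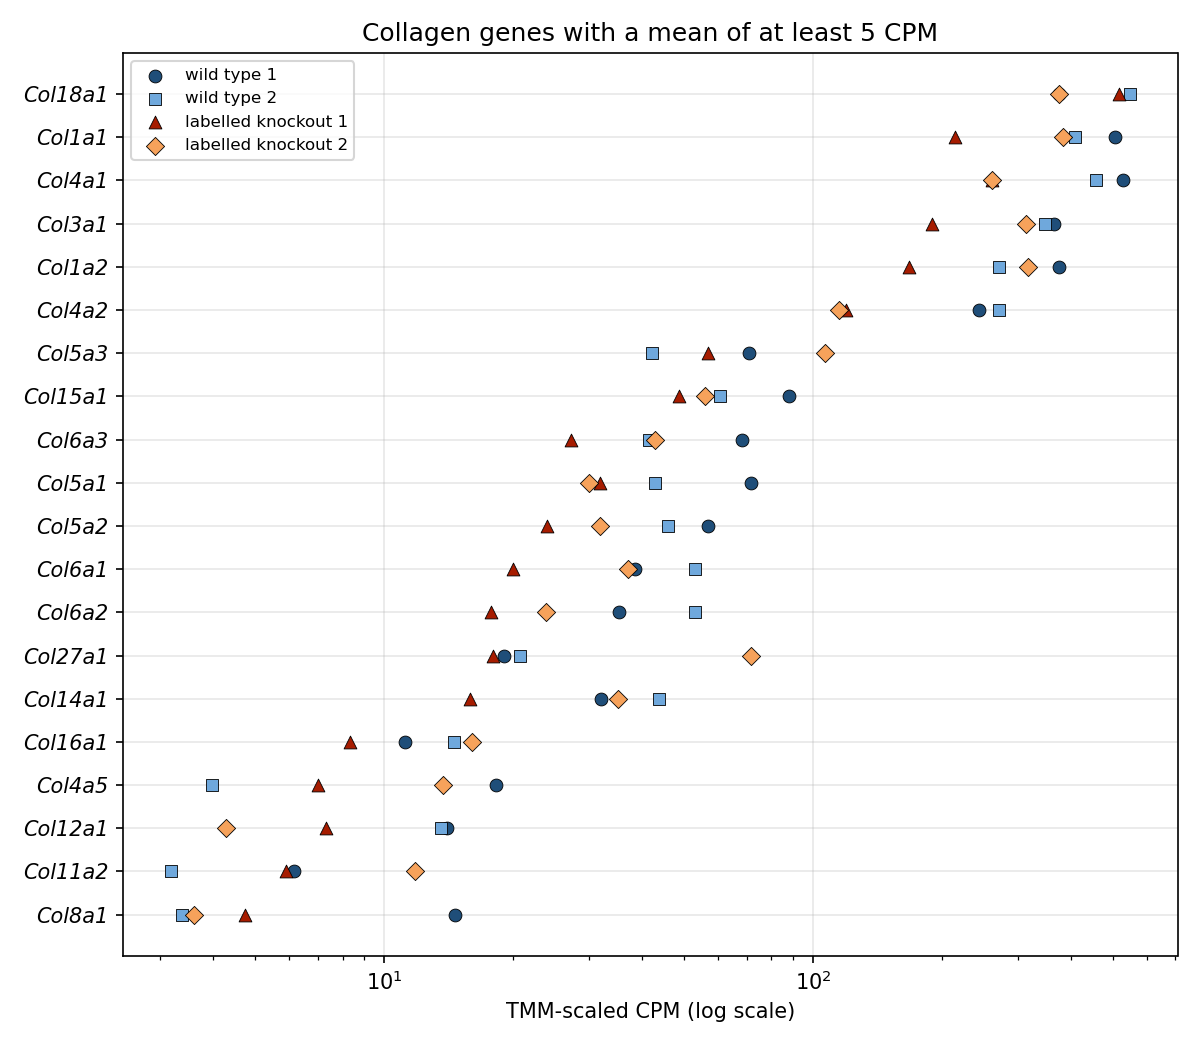
TMM-scaled CPM on a log axis of the 20 collagen genes with a mean of at least 5 CPM, one symbol per library. For Col4a1 and Col4a2 the knockout symbols nearly coincide to the left of both wild type symbols, while for Col27a1 knockout replicate 2 stands alone at 71.7 CPM.

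Type VI collagen, the beaded filament around cells, was lower in knockout with more spread. Summed over Col6a1, Col6a2 and Col6a3 it was 142 and 148 CPM in the wild type mice against 65.1 and 104 CPM in the knockout mice. Col6a2 had 35.3 and 53.1 CPM in the wild type mice against 17.8 and 23.8 CPM in the knockout mice (log2 fold change -1.09, SE 0.35, unadjusted p = 0.018, edgeR adjusted p = 0.547). Col6a1, also on chromosome 10, had 38.5 and 53.0 CPM in the wild type mice against 20.0 and 37.0 CPM in the knockout mice (log2 fold change -0.68, SE 0.39). Col6a3, the long chain of the trimer, had 68.5 and 41.5 CPM in the wild type mice against 27.3 and 42.9 CPM in the knockout mice (log2 fold change -0.65, SE 0.38). Knockout replicate 2 lay just below the wild type range for Col6a1 and inside it for Col6a3. Col6a1 was at -0.34 without knockout replicate 1 and -1.19 without knockout replicate 2, and Col6a3 ranged from -0.28 without wild type replicate 1 to -1.01 without knockout replicate 2. The alternative chains Col6a4, Col6a5 and Col6a6, which lie together on chromosome 9, had few counts and are described with the scarce genes.

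Among the fibril-associated collagens, Col12a1 had the lowest log2 fold change of all tested collagen genes, and the others overlapped or were scarce. Col12a1, a long collagen on the surface of fibrils, had 14.1 and 13.6 CPM in the wild type mice against 7.34 and 4.29 CPM in the knockout mice. Both knockout libraries lay below both wild type libraries (log2 fold change -1.25, SE 0.42, unadjusted p = 0.021, edgeR adjusted p = 0.548). Col14a1, which regulates fibril diameter, had 32.0 and 43.7 CPM in the wild type mice against 15.9 and 35.1 CPM in the knockout mice (log2 fold change -0.57, SE 0.44). That value was -0.14 without knockout replicate 1 and -1.255 without knockout replicate 2. Col16a1 had 11.2 and 14.6 CPM in the wild type mice against 8.33 and 16.02 CPM in the knockout mice, so knockout held both the lowest and the highest value. Col20a1 had 1.42 and 1.95 CPM in the wild type mice against 3.45 and 3.85 CPM in the knockout mice, from 26 to 61 counts (log2 fold change 1.12, SE 0.54, edgeR adjusted p = 0.631). Col9a3, with 9, 0, 11 and 20 counts, also had both knockout libraries above wild type, and 234 of its exonic bases overlap Tcfl5 on the other strand.

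The multiplexins Col15a1 and Col18a1 carry endostatin-type domains and bind basement membranes. Col18a1 had the highest mean CPM of all collagen genes, with 374 and 547 CPM in the wild type mice against 516 and 374 CPM in the knockout mice. The ranges of the groups overlapped almost entirely (log2 fold change -0.05, SE 0.39, 95% interval -0.98 to 0.88). As a share of collagen counts Col18a1 took 12.7% (Wilson 95% interval 12.4 to 13.0) and 19.9% (19.5 to 20.3) in wild type, and 29.1% (28.6 to 29.6) and 16.4% (16.02 to 16.78) in knockout. Without Col18a1 the collagen sum was 2571 and 2204 CPM in the wild type mice against 1258 and 1907 CPM in the knockout mice. Col15a1 had 87.7 and 60.7 CPM in the wild type mice against 48.7 and 56.1 CPM in the knockout mice (log2 fold change -0.50, SE 0.32), without overlap, and was at -0.25 without wild type replicate 1.

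Col7a1 and Col8a1 close the account of single genes. Col7a1, the anchoring fibril collagen beneath epithelia, was the only collagen gene higher in knockout at an unadjusted p under 0.05 in edgeR. It had 1.96 and 1.62 CPM in the wild type mice against 3.52 and 7.25 CPM in the knockout mice, from 25 to 115 counts (log2 fold change 1.58, SE 0.58, unadjusted p = 0.030, edgeR adjusted p = 0.584). Col8a1, a short-chain network collagen of vessel walls, had 14.7 CPM in wild type replicate 1 and between 3.38 and 4.75 CPM in the other 3 libraries. Its log2 fold change of -1.11 (SE 0.69) became 0.27 without wild type replicate 1.

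Scarce collagen genes were often highest in knockout replicate 2. Of the 21 detected genes with a mean below 5 CPM, 14 had their highest CPM there, where 35.6% of the 16479 detected genes below that level did. Col28a1 had 3 and 0 counts in the wild type mice against 2 and 81 in the knockout mice. Col6a5 had 1 and 11 counts in the wild type mice against 4 and 58 in the knockout mice, and its neighbour Col6a6 had 0, 8, 3 and 31 in the same order. The transmembrane collagen gene Col13a1 had 7, 13, 5 and 34 counts, and the short-chain gene Col8a2 had 0, 0, 2 and 24. Each of these 5, chosen after their values were seen, had its highest count in the same mouse, and the other knockout library was within or near the wild type range. The other transmembrane genes were near the floor, with at most 7 counts per library for Col17a1, 5 for Col23a1 and 1 for Col25a1. Col6a4, Col9a1, Col9a2, Col10a1 and Col22a1 had at most 4 counts in any library.

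**Figure D4:**
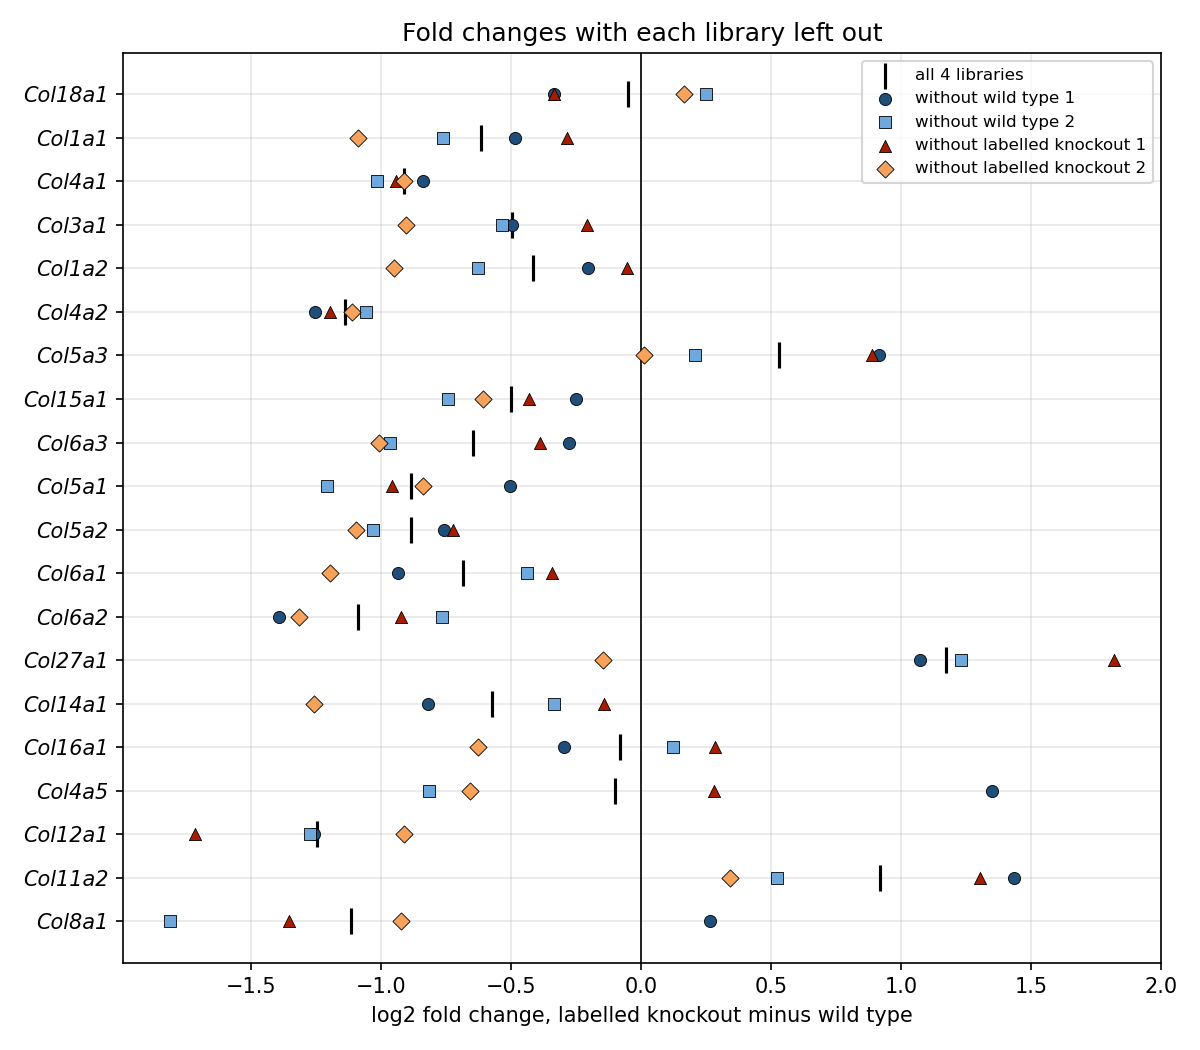
Log2 fold change of the 20 collagen genes with a mean of at least 5 CPM with all 4 libraries (vertical tick) and with each library left out (symbols). Col4a1 and Col4a2 stay within -1.25 and -0.84, while Col27a1, Col4a5, Col8a1, Col16a1 and Col18a1 cross 0.

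Partner chains of a trimer were compared per length, as ratios of the deposited FPKM, and the groups overlapped for some pairs only. Col1a1 to Col1a2 was 3.17 and 3.51 in the wild type mice against 3.01 and 2.82 in the knockout mice. Col4a1 to Col4a2 was 1.48 and 1.14 in the wild type mice against 1.49 and 1.55 in the knockout mice. Col6a1 to Col6a2 was 2.03 and 1.86 in the wild type mice against 2.10 and 2.89 in the knockout mice, and Col5a1 to Col5a2 ranged from 0.995 to 1.42 over the 4 libraries, with the groups mixed. Col6a1 to Col6a3 was 1.70 and 3.86 in the wild type mice, a range that enclosed the knockout values of 2.21 and 2.60. Col6a2 to Col6a3 was 0.836 and 2.08 in the wild type mice, again enclosing the knockout values of 1.05 and 0.900. Col11a1 to Col11a2 was 0.226 and 0.204 in the wild type mice against 0.139 and 0.0860 in the knockout mice. That pair rests on few counts, 18 to 46 per library for Col11a1 and 49 to 187 for Col11a2. The groups did not overlap for the type I, type IV, Col6a1 to Col6a2 and type XI pairs, at the smallest exact permutation p that the design allows, 0.333. The size of these ratios rests on the gene length. The length implied by the deposited FPKM was 16209 bases for Col1a2, 3.03 times its principal GENCODE M21 transcript of 5348 bases, and 6934 bases for Col1a1, 1.17 times its transcript. Per kilobase of principal transcript, a scale added after seeing the data, Col1a1 to Col1a2 was 1.22 and 1.35 in the wild type mice against 1.16 and 1.09 in the knockout mice. On that scale Col4a1 to Col4a2 was 2.12 and 1.64 in the wild type mice against 2.14 and 2.22 in the knockout mice, and Col6a1 to Col6a2 was 1.05 and 0.961 against 1.08 and 1.49. The order of levels changed as well, with Col1a1 at the top by mean FPKM (54.9, against 50.9 for Col18a1) and Col18a1 at the top per kilobase of principal transcript.

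Promoter windows were read from RefSeq's GRCm38.p6 table, which matched 35 of the 44 genes with 38 windows. The 250 bases before the start are shown for the genes with non-overlapping lower values whose window holds no annotated exon (Col3a1, Col5a1, Col15a1 and 1 of the windows of Col6a2). They are also shown for Col5a3, Col27a1 and Col11a2, whose windows are free of exons too and whose highest value was in knockout replicate 2. The Col27a1 window lies inside the annotated gene, and the Col5a1 and Col15a1 windows also overlap an annotated gene outside its exons. Capitals mark CCAAT, the GC box GGGCGG and TATAAA, each searched on both strands, and each line runs 5′ to 3′ on the strand of the gene.
Col3a1, chr1:45311288-45311537, plus strand: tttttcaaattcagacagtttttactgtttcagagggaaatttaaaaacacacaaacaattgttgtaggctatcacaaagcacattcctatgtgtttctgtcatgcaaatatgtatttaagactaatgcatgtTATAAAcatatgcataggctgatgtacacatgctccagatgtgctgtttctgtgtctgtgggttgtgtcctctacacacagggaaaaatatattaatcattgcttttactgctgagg
Col5a1, chr2:27886175-27886424, plus strand: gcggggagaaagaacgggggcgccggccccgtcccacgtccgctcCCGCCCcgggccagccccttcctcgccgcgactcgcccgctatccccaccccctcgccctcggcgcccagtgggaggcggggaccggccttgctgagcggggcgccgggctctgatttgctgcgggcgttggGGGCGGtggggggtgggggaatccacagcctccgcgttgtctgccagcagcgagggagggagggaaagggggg
Col15a1, chr4:47207762-47208011, plus strand: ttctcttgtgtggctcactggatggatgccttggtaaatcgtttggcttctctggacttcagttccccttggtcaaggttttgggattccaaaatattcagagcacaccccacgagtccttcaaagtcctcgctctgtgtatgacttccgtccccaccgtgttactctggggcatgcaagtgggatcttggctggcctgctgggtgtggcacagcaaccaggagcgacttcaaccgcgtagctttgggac
Col6a2, chr10:76623631-76623880, minus strand: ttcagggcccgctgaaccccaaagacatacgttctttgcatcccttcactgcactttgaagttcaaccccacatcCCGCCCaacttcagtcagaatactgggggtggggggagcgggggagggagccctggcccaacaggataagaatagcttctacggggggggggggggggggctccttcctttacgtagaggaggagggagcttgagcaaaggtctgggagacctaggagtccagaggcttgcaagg
Col5a3, chr9:20815068-20815317, minus strand: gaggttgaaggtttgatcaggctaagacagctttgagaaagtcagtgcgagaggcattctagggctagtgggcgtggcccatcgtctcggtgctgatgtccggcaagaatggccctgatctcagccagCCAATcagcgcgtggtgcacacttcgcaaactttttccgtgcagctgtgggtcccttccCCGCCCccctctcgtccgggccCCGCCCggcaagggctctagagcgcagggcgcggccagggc
Col27a1, chr4:63215162-63215411, plus strand: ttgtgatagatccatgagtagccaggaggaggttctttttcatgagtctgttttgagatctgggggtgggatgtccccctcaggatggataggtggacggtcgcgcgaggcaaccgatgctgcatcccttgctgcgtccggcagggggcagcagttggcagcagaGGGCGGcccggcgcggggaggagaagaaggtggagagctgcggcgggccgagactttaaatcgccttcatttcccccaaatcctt
Col11a2, chr17:34038888-34039137, plus strand: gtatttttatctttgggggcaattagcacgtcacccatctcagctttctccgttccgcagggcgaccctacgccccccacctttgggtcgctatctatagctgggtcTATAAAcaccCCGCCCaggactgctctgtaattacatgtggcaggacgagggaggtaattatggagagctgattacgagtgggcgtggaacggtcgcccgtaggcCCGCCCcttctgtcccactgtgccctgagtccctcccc
The shown windows of genes that were lower did not resemble each other in base composition. G and C made up 35.2% of the Col3a1 window, 53.6% for Col15a1, 59.2% for Col6a2 and 76.4% for Col5a1. Other genes that were lower without overlap are not covered. Col1a1, Col5a2 and Col12a1 had no matched window, and the windows of Col4a1, Col4a2 and Col6a1 hold an exon. The windows of Col5a3, Col27a1 and Col11a2 held 62.8%, 59.6% and 57.6%. Of the windows shown, TATAAA was present in those of Col3a1 and Col11a2, GGGCGG in those of Col5a1, Col6a2, Col5a3, Col27a1 and Col11a2, and CCAAT in that of Col5a3. Over all 38 collagen windows, CCAAT was present in 13 (34.2%, against 33.8% of 32851 windows in the table). GGGCGG was present in 22 (57.9%, against 32.7%) and TATAAA in 5 (13.2%, against 12.4%). Some windows belong to the same gene, and a match describes the letters only.

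Genes that modify, cut and cross-link collagen were mixed. None of the members of any list below passed the adjusted threshold with edgeR. Of all tested genes, 49.6% had a negative log2 fold change, and 4.35% were lower and 3.95% higher at an unadjusted p under 0.05 in edgeR. Of 20 tested genes of chain modification and folding, 12 had a negative log2 fold change (median -0.09), and 3 were lower and 1 higher at an unadjusted p under 0.05. Fkbp10, a chaperone of the collagen helix, had 13.1 and 17.3 CPM in the wild type mice against 5.74 and 6.12 CPM in the knockout mice, and Fkbp14, a related enzyme, had 7.24 and 4.22 against 12.4 and 12.1 CPM. P4ha1, a catalytic subunit of the iron-dependent prolyl 4-hydroxylase, had 49.5 and 49.97 CPM in the wild type mice against 34.7 and 23.9 CPM in the knockout mice. Of 11 genes of propeptide cleavage and crosslinking, 7 were negative (median -0.48), and 4 were lower and 0 higher at an unadjusted p under 0.05. The C-proteinase enhancer gene Pcolce had 45.4 and 71.2 against 10.9 and 23.8 CPM, and the lysyl oxidase gene Loxl2 had 35.2 and 41.2 against 17.2 and 6.56 CPM. Pcolce2 had a log2 fold change of -1.08.

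Partners of collagen in the matrix had mostly negative values, where 49.6% of all tested genes did. At an unadjusted p under 0.05 in edgeR, 4.35% of all tested genes were lower and 3.95% higher. Of 15 fibril-binding genes, 12 were negative (median -0.46), with 4 lower and 0 higher at an unadjusted p under 0.05. Sparc, a collagen-binding glycoprotein, had 386 and 516 CPM in the wild type mice against 211 and 209 CPM in the knockout mice. Postn had a log2 fold change of -1.33 (SE 0.35). Aspn, with 93 and 24 counts in the wild type mice against 16 and 9 in the knockout mice, was at -2.08 (SE 0.77). Of 16 basement membrane partners of type IV collagen, 12 were negative (median -0.54), with 4 lower and 0 higher at that p. The laminin gene Lamb1 had 39.4 and 40.0 CPM in the wild type mice against 15.5 and 16.2 CPM in the knockout mice, and Lama4 and Lamb3 had log2 fold changes of -1.53 and -1.001. Of 9 collagen receptor genes, 8 were negative (median -0.30), with 1 lower and 0 higher at an unadjusted p under 0.05. Ddr1, a receptor tyrosine kinase for collagen, had the smallest p, with 82.0 and 62.9 against 33.6 and 44.9 CPM. Lair1 had 12.1 and 4.61 CPM in the wild type mice against 4.50 and 3.34 CPM in the knockout mice (log2 fold change -1.09, SE 0.57). Itga11 had 18 and 25 counts in the wild type mice against 4 and 13 in the knockout mice (log2 fold change -1.27, SE 0.80).

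Collagen-degrading proteases and their inhibitors had the lowest median of the pathway lists, -0.92, with 10 of 12 genes negative and 5 lower and 0 higher at an unadjusted p under 0.05. Over all tested genes, 49.6% were negative, and 4.35% were lower and 3.95% higher at that p in edgeR. Mmp14, a membrane-bound collagenase, had 62.4 and 82.1 CPM in the wild type mice against 38.5 and 29.9 CPM in the knockout mice. Mmp2, a gelatinase, had 12.6 and 14.1 against 6.11 and 5.68 CPM, and Timp4 had 27.0 and 4.22 against 0.308 and 2.33 CPM. Among 18 genes of TGF-beta signalling, a main inducer of fibrillar collagen, 9 were negative and 9 positive (median -0.05). Of these, 3 were lower and 0 higher at an unadjusted p under 0.05 in edgeR. In 7 of the 18 both knockout libraries lay below both wild type libraries (20.1% of all tested genes), and in 1 both lay above (21.9%). Tgfb1 had 33.8 and 37.95 CPM in the wild type mice against 20.1 and 18.1 CPM in the knockout mice, and its target gene Tgfbi had a log2 fold change of -1.20.

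**Figure D5:**
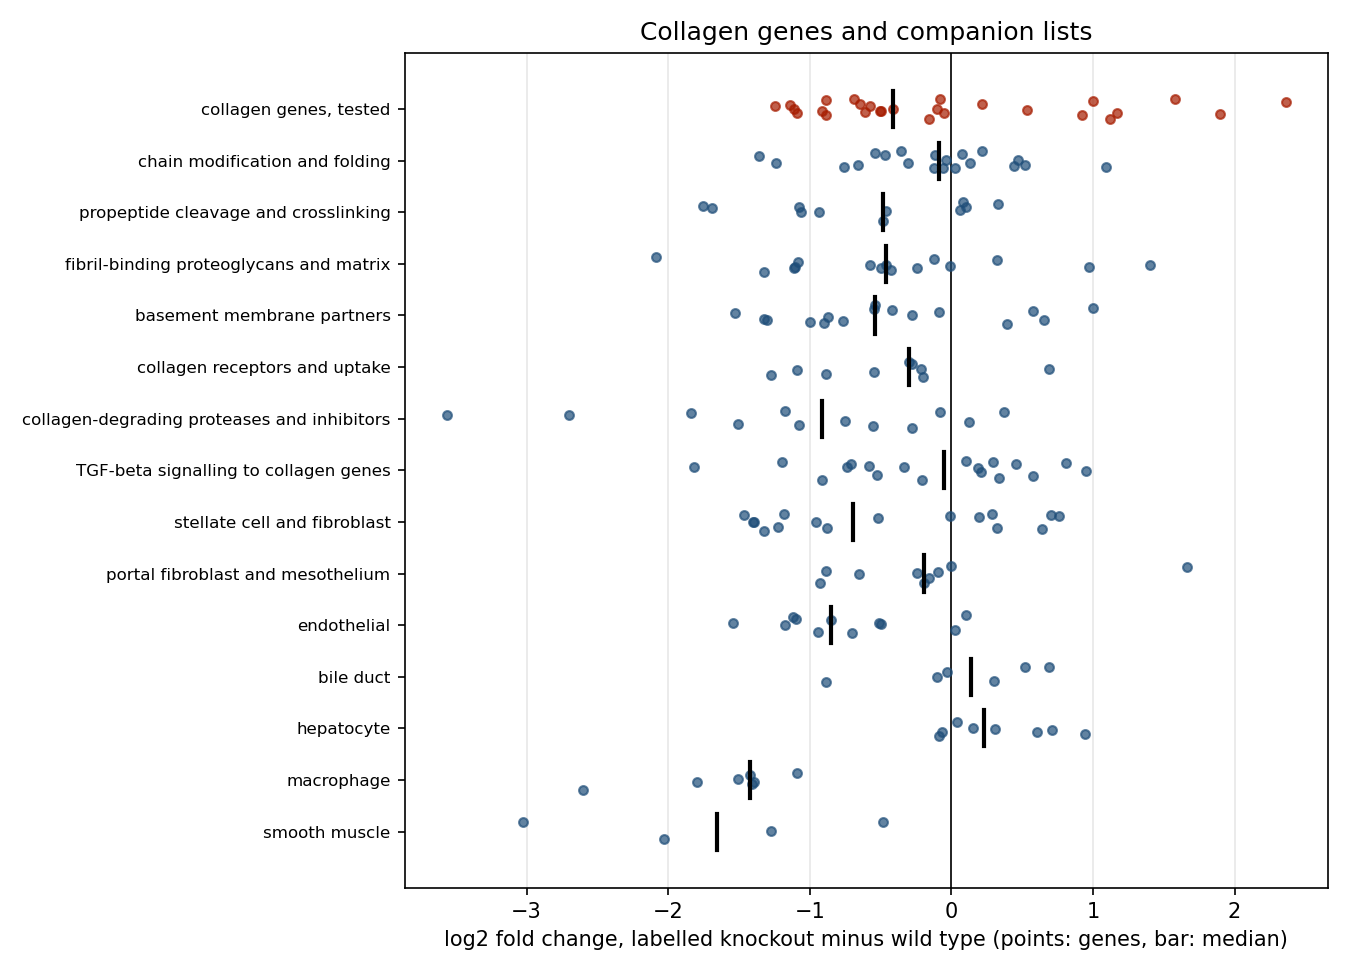
Log2 fold change (labelled knockout minus wild type) of the tested collagen genes and of the tested members of each companion list with at least 3 of them (points, jittered vertically), with the median as a bar. The collagen median is -0.41, the medians of the smooth muscle, macrophage, protease, endothelial and stellate lists lie between -1.65 and -0.70, and those of the hepatocyte and bile duct lists are above 0.

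Markers of stellate cells, endothelial cells and smooth muscle also had lower sums in both knockout libraries, and portal fibroblast markers did not separate. Negative log2 fold changes made up 49.6% of those of all tested genes. Stellate cell and fibroblast markers summed to 579 to 693 CPM in the wild type mice against 275 to 443 CPM in the knockout mice, with 10 of 16 negative (median -0.70). Acta2, the actin of activated stellate cells, had 89.8 and 78.6 CPM in the wild type mice against 27.3 and 36.3 CPM in the knockout mice, Des had a log2 fold change of -1.39, and Vim, the most abundant marker, -0.95. The 6 positive members, named after their values were seen, were Pdgfra at 0.76, Hgf at 0.70, Reln at 0.64, Lum at 0.32, Ecm1 at 0.28 and Lrat at 0.19. Endothelial markers summed to 197 to 256 CPM in the wild type mice against 130 to 146 CPM in the knockout mice. Of these, 9 of 11 were negative (median -0.85), among them Stab2 at -1.18, Vwf at -1.54, Esam at -1.10, Egfl7 at -0.51 and Cdh5 at -0.50. The 2 positive members, named after their values were seen, were Tek at 0.10 and Kdr at 0.03. The 4 smooth muscle markers were all negative (median -1.65) and summed to 57.0 to 70.6 CPM in the wild type mice against 36.1 to 37.2 CPM in the knockout mice. Cnn1, Actg2, Myh11 and Smtn had log2 fold changes of -3.02, -2.03, -1.28 and -0.48. The value for Cnn1 (SE 0.68) rests on 38 and 40 counts in the wild type mice against 5 and 4 in the knockout mice. Portal fibroblast and mesothelial markers had overlapping sums, 130 to 230 CPM in the wild type mice against 133 to 175 CPM in the knockout mice, with 8 of 9 negative (median -0.19). In that list Fbln2, Entpd2, Eln and Gas6 were at -0.93, -0.88, -0.24 and -0.003. Wt1, with 12 and 7 counts in the wild type mice against 17 and 40 in the knockout mice, was at 1.67 (SE 0.73).

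The other cell types did not follow one direction. Again, 49.6% of all tested genes were negative. Macrophage markers summed to 600 to 877 CPM in the wild type mice against 214 to 327 CPM in the knockout mice, with 7 of 7 negative (median -1.43), among them Csf1r at -1.41, C1qb at -1.51, C1qa at -1.39 and Mrc1 at -1.43. Hepatocyte markers summed to 10810 to 41100 CPM in the wild type mice against 28950 to 30640 CPM in the knockout mice, with 2 of 8 negative (median 0.23). In that list Tat, Ttr, Cps1 and Alb were at 0.71, 0.60, 0.30 and 0.15. The 2 negative members, named after their values were seen, were Hnf4a at -0.09 and Serpina1c at -0.07. Bile duct markers summed to 458 to 1026 CPM in the wild type mice against 1156 to 1175 CPM in the knockout mice, with 3 of 6 negative (median 0.14), and Spp1, Cdh1 and Sox9 were at 0.69, 0.52 and 0.30. The 3 negative members, named after their values were seen, were Krt19 at -0.89, Epcam at -0.10 and Krt7 at -0.03. No marker of the stellate, endothelial, smooth muscle, portal, macrophage, hepatocyte or bile duct lists was at 0 in every library. The cartilage and bone markers Acan and Ibsp had no count, and of that list only Sox9 was tested. The part of these cell types in the collagen values was not tested.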

How the data were processed

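Messenger RNA of bulk tumour tissue from 4 mice was sequenced, and the authors deposited raw counts and FPKM per gene, per the file headers. HISAT2, SAMtools 1.3.1, StringTie and edgeR with the mm10 build are named in the submitters' processing notes, without roles. The labels do not give the strandedness, and 13 collagen genes share exonic bases with another gene. For those with a mean of at least 5 CPM, any single other gene overlaps at most 1.4% of the exonic length. Col5a1 overlaps both 2810430I11Rik (1.2%) and Gm13372 (1.3%). The deposited spans of all 44 collagen genes equalled GENCODE M21. FPKM followed from counts, a fixed length and the column total within 1% for 100% of 14371 genes. Counts were filtered with filterByExpr, scaled by TMM and tested with edgeR 4.0.16 in R 4.3.3 (quasi-likelihood F test, two-sided, Benjamini-Hochberg over 16310 genes, threshold 0.05), by group, in all 4 libraries. A floor of 3 counts is 0.163 to 0.195 TMM-scaled CPM, lowest in wild type replicate 1 and highest in wild type replicate 2. Wilson intervals and floors cover counting error only. The intervals of log2 fold changes come from edgeR's fit and also include its estimated spread between libraries. Collagen genes with a mean of at least 5 CPM are given by library; of each companion list, the 3 members with the smallest p are named, and for cell types also the 2 most abundant, except 1 gene that is not reported here. Members and lists were chosen with earlier results of these data known. Alternatives were DESeq2 size factors, library totals, leaving out mitochondrial genes, no filter or a filter at 5 CPM, DESeq2 1.42.0, limma-voom (limma 3.58.1), a replicate block, and leaving out each library, with the lone library taken to vary as the other group does.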

Additional observations from a re-analysis of the deposited data

How the results depend on the processing

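The 0 collagen calls stayed 0 under 12 alternatives. The share of tested collagen genes with a negative log2 fold change, 66.7%, ranged from 51.2% with no filter on low counts to 85.0% with a filter at 5 CPM, and was 51.6% without wild type replicate 1, wild type replicate 2 or knockout replicate 1. These shares do not cover the same genes, with 41 tested collagen genes under no filter and 20 under the filter at 5 CPM. Their median was -0.90 without knockout replicate 2 and -0.038 without knockout replicate 1, and lay between -0.56 and -0.09 under the alternatives that keep all libraries. The summed collagen difference, -820 CPM, was -852 with DESeq2 size factors and -886 with library totals, and ranged from -1074 to -567 when 1 library was left out. Without mitochondrial genes it was -945, where CPM are scaled to the remaining counts and every value is raised, so the size is not comparable. Over all genes the 0 calls became 1 with library totals, 148 with DESeq2, 1 with limma-voom and 4 with the replicate block, and ranged from 0 to 409 when 1 library was left out. With the replicate block, 0 collagen genes passed, 17 were negative and the median was -0.47. Deviations of same-numbered libraries had a correlation of 0.107 across genes, with 2 pairs and no shared origin in the labels, so the numbers were not taken as pairs. Of the 20 collagen genes with a mean of at least 5 CPM, 15 kept their sign throughout. Col4a5 (-0.10) was at 0.16 with limma-voom and 0.18 with the replicate block. When 1 library was left out, Col4a5 ranged from -0.81 to 1.35, with positive values without wild type replicate 1 and without the first knockout library (0.28). Col8a1 ranged from -1.81 to 0.27, positive without wild type replicate 1. Col18a1 ranged from -0.33 to 0.25, positive when wild type replicate 2 or knockout replicate 2 (0.17) was left out. Col16a1 ranged from -0.625 to 0.29, positive when knockout replicate 1 or wild type replicate 2 (0.12) was left out. Col27a1 ranged from -0.15 to 1.82, negative when knockout replicate 2 was left out. The cause was not tested. The filter on low counts removed 17 of the 44 collagen genes, of which 14 had counts.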
